A study of Homo sapiens with 18 samples.

Results

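Solute carrier (SLC) transporters move sugars, amino acids, metals, organic acids, drugs and ions across the plasma membrane and the membranes of organelles. They are numbered by family, and the family number largely tracks what is carried. The genes described here are those whose symbol has the form SLC, a family number, the letter A and a member number, leaving out SLC2A1. This rule took 195 of the 13141 genes in the expression table, in 41 families, and used no measured value. RefSeq lists 190 of these symbols as current and 5 as older names. By family number they were sorted into 9 classes: 38 carriers of amino acids and peptides, 35 mitochondrial carriers (family SLC25), 26 carriers of acid-base equivalents, anions and chloride, 24 metal carriers, 22 sugar carriers, 21 carriers of organic ions, drugs and lipids, 15 carriers of phosphate, vitamins and nucleosides, 9 monocarboxylate carriers (family SLC16) and 5 nucleotide sugar carriers. A class name does not describe every family in it. Family SLC24, placed with the acid-base, anion and chloride carriers, exchanges cations.

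RNA from 786-O cells, a line derived from a clear cell renal cell carcinoma (ccRCC), was hybridized to 18 Illumina HumanHT-12 V4 arrays, with 3 arrays in each of 6 groups. The cells were VHL-/- or VHL+/+, and in each background they stably carried a scramble control shRNA (SCR), an shRNA against PBRM1 or an shRNA against KDM5C. The VHL+/+ cells had VHL put back into the VHL-null line, and every group thus shared the 786-O background, stable shRNA infection and growth in DMEM with serum without further treatment. Arrays 1 and 2 of each group are labelled as chip 1 and array 3 as chip 2, and each target was represented by a single shRNA. PBRM1 mRNA was not detectably lower with its shRNA, at log2 differences of -0.06 in VHL-/- cells and -0.15 in VHL+/+ cells (limma adjusted p = 0.864 and 0.639), VHL mRNA differed by 0.08 between backgrounds (adjusted p = 0.394), and KDM5C was not analysed here. The expression data thus do not check the knockdowns, and the groups are called by their labels. The kidney epithelial markers PAX8 (log2 signal 8.07 to 8.86), CDH6, KRT8 and KRT18 and the mesenchymal filament gene VIM (13.7 to 14.1) lay above the dimmest 25% of the table by mean signal, whereas CDH16, PECAM1 and COL1A1 lay within it, and PAX2, CA9, PTPRC, CD3E and CDH5 were not analysed here. Of the markers of cell types other than kidney epithelium, CD68 (8.16 to 9.05) and ACTA2 (7.82 to 9.40) were above that range.

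VHL is the substrate-recognition subunit of the ubiquitin ligase that marks hypoxia-inducible factor (HIF) for degradation. Cells without VHL keep HIF in normal oxygen, and 786-O cells are known for HIF-2alpha. HIF is known to raise genes for glucose uptake, lactate export and the uptake of large neutral amino acids, many of whose products are SLC transporters. PBRM1 is a subunit of a SWI/SNF chromatin remodeling complex and KDM5C is a demethylase of histone H3 lysine 4, and both genes are often mutated in ccRCC. In the kidney, SLC transporters are also the machinery of reabsorption in the proximal tubule, the segment from which ccRCC is thought to arise.

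The stretches just upstream of 4 transporters are shown because these were the genes called in at least 2 comparisons that have a single start in the RefSeq promoter table, and because HIF binds the core letters ACGTG and GCGTG. Each sequence is the 250 bases before the start on build GRCh38.p14, written 5′ to 3′ on the strand of the gene, with matches to either motif on either strand in capitals.
SLC7A5 (chr16:87869508-87869757, minus strand): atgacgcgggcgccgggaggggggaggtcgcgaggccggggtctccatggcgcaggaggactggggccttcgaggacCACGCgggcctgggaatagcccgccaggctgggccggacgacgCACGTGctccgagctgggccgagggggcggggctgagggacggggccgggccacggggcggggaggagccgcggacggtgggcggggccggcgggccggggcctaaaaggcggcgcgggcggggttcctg
SLC38A5 (chrX:48470261-48470510, minus strand): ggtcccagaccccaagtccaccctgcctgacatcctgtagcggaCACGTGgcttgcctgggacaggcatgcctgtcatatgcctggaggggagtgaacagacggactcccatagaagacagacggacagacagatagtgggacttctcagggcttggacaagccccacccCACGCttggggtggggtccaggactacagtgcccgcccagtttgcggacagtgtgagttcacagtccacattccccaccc
SLC31A1 (chr9:113221294-113221543, plus strand): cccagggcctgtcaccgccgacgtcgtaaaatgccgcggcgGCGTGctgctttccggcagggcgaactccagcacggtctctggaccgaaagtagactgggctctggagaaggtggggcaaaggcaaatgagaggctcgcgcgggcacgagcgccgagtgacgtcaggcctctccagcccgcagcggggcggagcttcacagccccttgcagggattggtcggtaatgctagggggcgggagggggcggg
SLC2A2 (chr3:171026721-171026970, minus strand): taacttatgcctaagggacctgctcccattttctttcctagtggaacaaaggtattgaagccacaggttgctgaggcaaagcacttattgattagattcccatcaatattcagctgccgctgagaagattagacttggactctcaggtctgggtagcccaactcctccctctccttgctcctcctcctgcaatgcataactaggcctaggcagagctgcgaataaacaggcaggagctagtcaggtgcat
In SLC7A5 and in SLC38A5 the palindrome CACGTG holds ACGTG on each strand, and each promoter has 1 further match to GCGTG. The SLC31A1 stretch has 1 match to GCGTG and the SLC2A2 stretch has none. Either motif was found in 43.2% of all 35116 promoters of the table and in 58.5% of the 241 promoters of 159 transporters, so a match is common and is only a description of the letters in this window. SLC2A3, SLC16A5 and SLC15A3 have no entry.

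Values are log2 signals as deposited, and a difference of 1 is a doubling of signal. A transporter is called changed when limma gave an adjusted p under 0.05 over all 13141 genes and the fold change was at least 1.5. Signals of different genes come from different probes and are not set against each other. Arrays of a group correlated at 0.965 to 0.993 over the transporters, and the median within-group SD was 0.115. The transporters were dimmer than the table as a whole, with 64 of 195 (32.8%) in the lowest 25% of mean signal, and a chip difference reached adjusted p under 0.05 in 49 (25.1%), against 23.8% of all genes. The labels do not say whether the 3 arrays of a group came from separate cultures, so the p-values measure the spread between these arrays, which may be technical. With 3 arrays against 3, an exact permutation test of a single gene could not go below p = 0.1, and the model across all genes was used instead.

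The VHL+/+ cells had lower signals of some transporters and higher signals of others, with amino acid and glucose carriers in both directions. Over all 3 shRNAs, the mean VHL effect (VHL+/+ minus VHL-/-) called 6 of 195 transporters. SLC2A3, SLC7A5 and SLC38A5 were lower and SLC2A2, SLC7A7 and SLC44A3 were higher, with log2 differences of -0.78 to 0.82. Of all genes 0.928% were called (0.586% lower and 0.342% higher), against 3.08% of the transporters. At adjusted p under 0.05 with no fold limit, 36 transporters passed, 17 lower and 19 higher, or 18.5% against 12.2% of all genes (6.17% lower and 6.03% higher). The median of the transporters was 0.01 beside 0.00 for all genes, with 91 transporters below 0 and 104 above. In RNA from whole cultures, fewer expressing cells and less RNA per cell cannot be told apart.

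**Figure D1:**
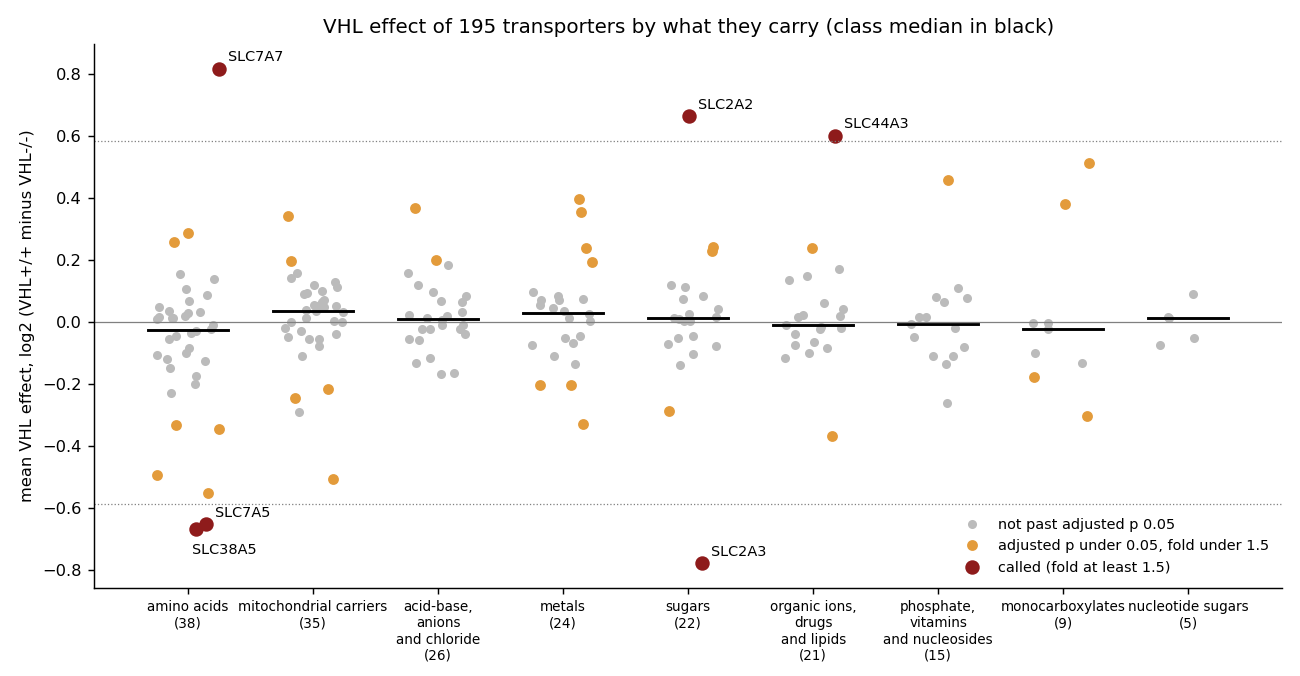
Each point is 1 of 195 transporters, placed by class on the x axis (number of genes in parentheses) and by its mean VHL effect on the y axis (log2, VHL+/+ minus VHL-/-, over the 3 shRNAs). Black bars are class medians and dotted lines mark a 1.5-fold change. The 6 called transporters lie in 3 classes, amino acids, sugars and organic ions, and all class medians lie between -0.03 and 0.04.

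Amino acid carriers made up the largest class and held the most changes by count. At adjusted p under 0.05 the share was larger among monocarboxylate and metal carriers, whose counts are given below. Of 38, 6 were lower and 3 higher at adjusted p under 0.05 in the mean VHL effect, and 2 and 1 of them were called. SLC7A5 encodes LAT1, the light chain that brings leucine and other large neutral amino acids into the cell. Its signals in SCR cells were 12.78, 12.63 and 12.55 in VHL-/- and 12.20, 12.40 and 11.70 in VHL+/+ arrays. With PBRM1 shRNA they were 12.70, 12.55 and 12.70 against 12.05, 12.09 and 11.58, and with KDM5C shRNA 12.73, 12.86 and 12.42 against 11.83, 12.46 and 11.75. The VHL+/+ arrays were lower without overlap in SCR and PBRM1 shRNA cells, and in KDM5C shRNA cells 1 VHL+/+ array reached into the VHL-/- range. The VHL effect was -0.55 in SCR cells, -0.74 in PBRM1 shRNA cells and -0.66 in KDM5C shRNA cells (adjusted p = 0.0474, 0.00975 and 0.0207), and -0.65 ± 0.08 (SE) as a mean (adjusted p = 6.97e-05). The SCR difference passed the adjusted p but not the fold. The PBRM1 shRNA call was lost without the third array of either background (adjusted p 0.0728 and 0.053), and the KDM5C shRNA call without any 1 of 4 of its 6 arrays (0.0501 to 0.108).

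SLC3A2 encodes 4F2hc (CD98), the heavy chain that holds LAT1 and several other light chains at the cell surface. It moved the same way as SLC7A5, with signals of 10.36, 10.43 and 10.05 in VHL-/- SCR arrays and 9.75, 10.06 and 9.41 in VHL+/+ SCR arrays, where 1 VHL+/+ array just overlapped. With PBRM1 shRNA the VHL-/- arrays read 10.09, 10.16 and 10.02 and the VHL+/+ arrays 9.66, 9.37 and 9.04, with no overlap. With KDM5C shRNA they read 10.00, 10.18 and 9.74 against 9.59, 9.93 and 9.25, which overlapped. The effect was -0.54 in SCR cells (adjusted p = 0.0156), -0.73 in PBRM1 shRNA cells (adjusted p = 0.00162, called) and -0.38 in KDM5C shRNA cells (adjusted p = 0.0939). The PBRM1 shRNA call was lost without the chip term in the model (adjusted p = 0.144) and with only the arrays of the comparison (adjusted p = 0.0639). The mean effect of -0.55 passed the adjusted p (3.11e-05) but fell short of the fold.

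SLC38A5, a sodium-coupled carrier of glutamine, histidine and other neutral amino acids, separated the backgrounds completely. The 9 VHL-/- arrays lay between 7.17 and 8.02 (median 7.52) and the 9 VHL+/+ arrays between 6.73 and 7.10 (median 6.91). Its mean in the VHL+/+ arrays lay at percentile 25.6 of all genes there. Whether those signals were above background was not assessed, so the size of the effects as a fold of mRNA is not known. Its VHL effect was -0.47 in SCR cells, -0.56 in PBRM1 shRNA cells and -0.97 ± 0.11 (SE) in KDM5C shRNA cells (adjusted p = 0.0323, 0.0116 and 1.42e-04), and the last was called. The KDM5C shRNA effect on it was 0.38 in VHL-/- cells (adjusted p = 0.0644) and -0.12 in VHL+/+ cells. The difference between the VHL effects in KDM5C shRNA and SCR cells was -0.50 (95% interval -0.84 to -0.16, unadjusted p = 0.00623, adjusted p = 0.435) and did not pass the test over all genes.

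SLC1A5 encodes ASCT2, a sodium-dependent carrier of glutamine and other neutral amino acids. It was called lower in PBRM1 shRNA cells, where VHL-/- arrays read 9.86, 10.13 and 9.62 and VHL+/+ arrays 9.48, 9.43 and 8.91. In SCR cells the arrays read 9.87, 9.45 and 9.55 against 9.58, 9.73 and 9.40, and overlapped. The effects were -0.60 in PBRM1 shRNA cells (adjusted p = 0.0232), -0.06 in SCR cells (adjusted p = 0.904) and -0.33 in KDM5C shRNA cells (adjusted p = 0.243), and leaving out any 1 of 4 of the 6 PBRM1 shRNA arrays ended the call (adjusted p 0.0668 to 0.137). The difference between the PBRM1 shRNA and SCR effects was -0.54 (95% interval -0.94 to -0.14, adjusted p = 1), so a difference between the shRNAs was not established.

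SLC7A7 ran the other way. It encodes y+LAT1, a light chain that also pairs with 4F2hc and exports cationic amino acids across the basolateral membrane of kidney tubule cells. Signals in PBRM1 shRNA cells were 8.02, 8.04 and 8.82 in VHL-/- and 9.45, 8.63 and 9.83 in VHL+/+ arrays, and in KDM5C shRNA cells 8.91, 8.68 and 8.70 against 9.02, 9.57 and 10.14. In SCR cells they were 8.96, 8.59 and 9.31 against 9.39, 9.28 and 10.09. The groups did not overlap as deposited in KDM5C shRNA cells, nor in the other cells once the chip difference was removed, and the chip 2 array was the highest in all groups but VHL-/- KDM5C shRNA. The effect was 1.01 ± 0.21 (SE) in PBRM1 shRNA cells (adjusted p = 0.016, called), 0.63 in SCR cells (adjusted p = 0.131) and 0.81 in KDM5C shRNA cells (adjusted p = 0.0518). The mean effect was 0.82 (adjusted p = 2.87e-04), a fold of 1.76. The call in PBRM1 shRNA cells was lost without any 1 of 4 arrays (adjusted p 0.059 to 0.0993).

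**Figure D2:**
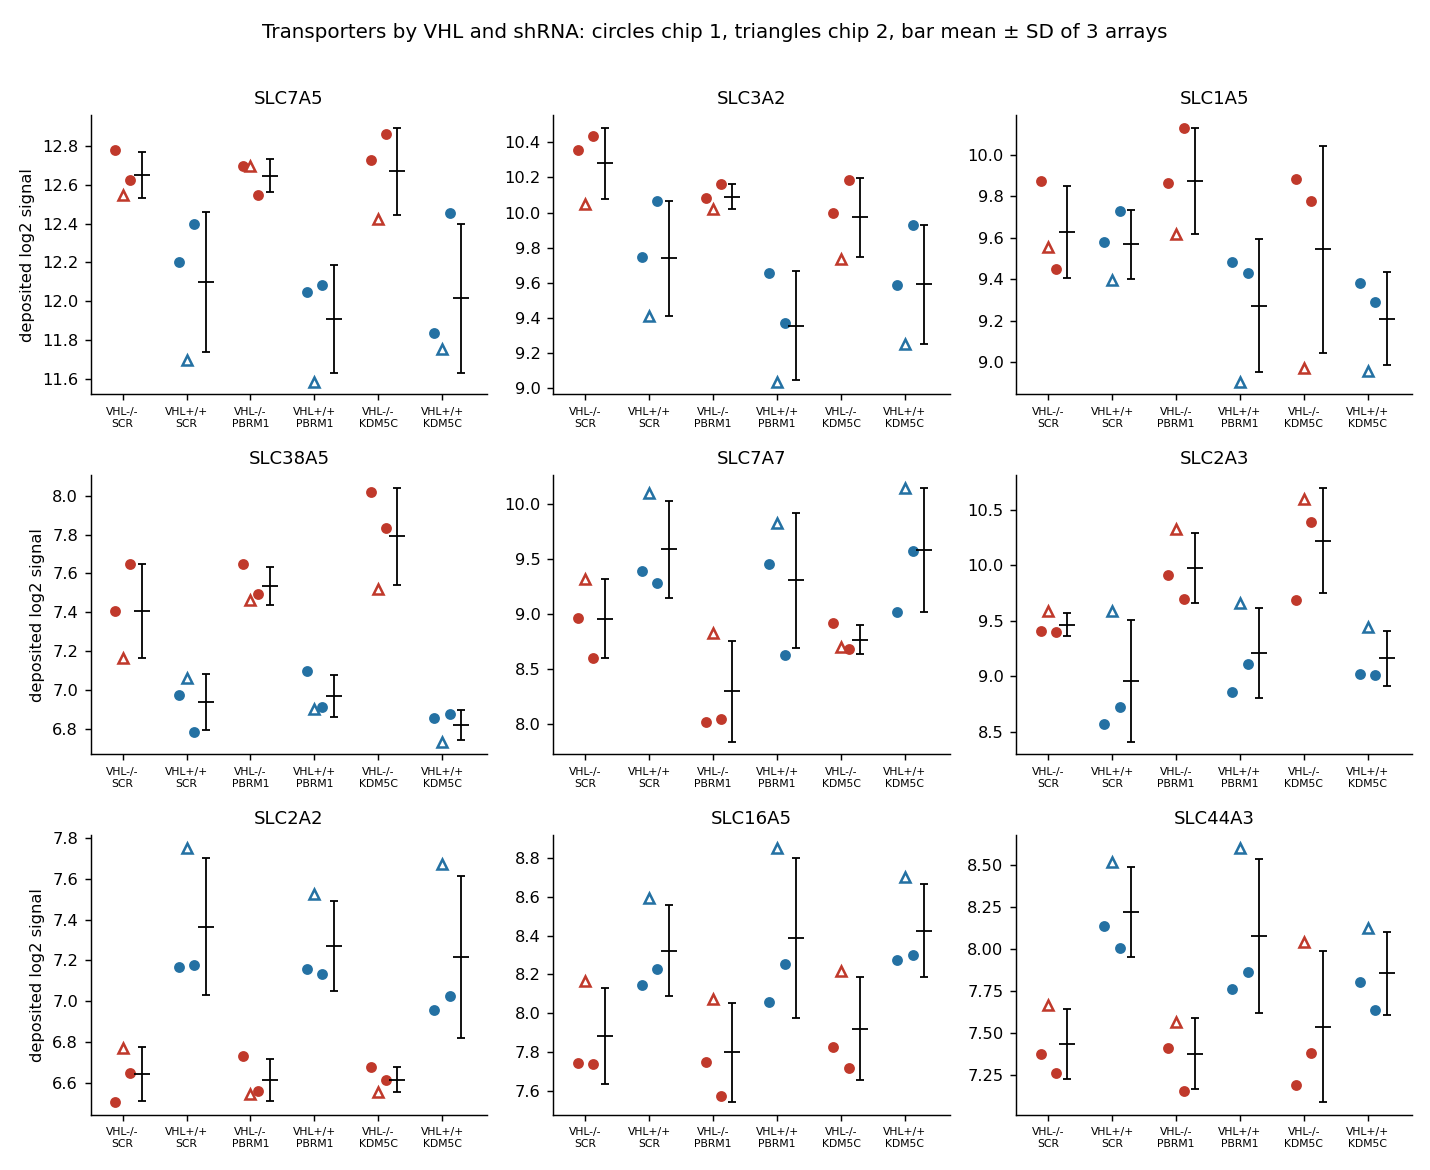
Deposited log2 signals (y axes, scaled for each gene) of 9 transporters called in at least 1 VHL comparison on each of 18 arrays, by background and shRNA (x axes, where PBRM1 and KDM5C stand for the shRNAs). Red marks VHL-/- and blue VHL+/+, circles are chip 1, open triangles chip 2, and black bars the mean and SD of 3 arrays. The 9 VHL-/- arrays of SLC38A5 lie above all 9 VHL+/+ arrays, and those of SLC2A2 below all 9, while for SLC16A5 and SLC44A3 the chip 2 array was the highest of every group.

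Many of these carriers are known targets of ATF4, the transcription factor of the amino acid response. Of 8 listed, 4 were lower at adjusted p under 0.05 in the mean VHL effect and none higher, and SLC7A5 was called. Over all genes 6.17% were lower and 6.03% higher at that adjusted p, and 0.586% were called lower. SLC3A2 and SLC1A5 are given above, and SLC7A1, the cationic amino acid carrier CAT1, was at -0.34 (adjusted p = 0.0288). SLC7A11, the cystine importer, was at -0.15 (adjusted p = 0.138) and lay in the dimmest 25%. The list's median was -0.28, beside 0.00 over all genes. SLC38A2, the neutral amino acid carrier SNAT2, was at 0.14 (adjusted p = 0.123). SLC43A3, grouped here by its family number but known as a carrier of purine nucleobases, is 1 of the 6 lower members of the class, at -0.49 (adjusted p = 0.00129). Among the amino acid carriers outside the list, the betaine and GABA carrier SLC6A12 was at 0.29 (adjusted p = 0.00177).

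Among sugar carriers, 2 of 22 were lower and 3 higher at adjusted p under 0.05 in the mean VHL effect, and 1 in each direction was called, both in the GLUT family SLC2 (9 members here). SLC2A3 encodes GLUT3, a high-affinity glucose carrier. Its VHL-/- arrays read 9.40, 9.40 and 9.58 in SCR, 9.91, 9.69 and 10.32 in PBRM1 shRNA and 9.69, 10.38 and 10.59 in KDM5C shRNA cells. Its VHL+/+ arrays read 8.57, 8.73 and 9.59, then 8.86, 9.11 and 9.66, then 9.02, 9.01 and 9.45 in the same order. The groups overlapped in SCR cells only. The effect was -0.50 in SCR cells (adjusted p = 0.0965), -0.76 in PBRM1 shRNA cells (adjusted p = 0.0135) and -1.06 ± 0.16 (SE) in KDM5C shRNA cells (adjusted p = 0.00105), and the latter pair were called. In SCR cells the difference was -0.76 on chip 1 and 0.00 on chip 2, and chip 2 read 0.55 higher on average (adjusted p = 6.28e-04). The PBRM1 shRNA call was lost without the first array of either background (adjusted p 0.0552 and 0.0585). SLC2A14 is a near-identical gene and the probes may read both. SLC2A14 itself moved by -0.10 as a mean (adjusted p = 0.114). It was dim, at percentile 9.99 of mean signal, and whether it was above background was not assessed.

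SLC2A2 encodes GLUT2, the low-affinity carrier of liver, beta cells and the basolateral side of the proximal tubule. The 9 VHL-/- arrays lay between 6.50 and 6.77 (median 6.61) and the 9 VHL+/+ arrays between 6.95 and 7.75 (median 7.17), with no overlap. It was the only transporter called in all 3 VHL comparisons, with effects of 0.73 in SCR, 0.66 in PBRM1 shRNA and 0.60 in KDM5C shRNA cells (adjusted p = 0.00854, 0.0156 and 0.0256). The gene was dim. Its mean in the VHL-/- arrays lay at percentile 0.662 of all genes there and its mean in the VHL+/+ arrays at percentile 40.4, and whether the VHL-/- signals were above background was not assessed, so the effects are differences of signals and their size as a fold of mRNA is not known. The effect was larger on chip 2 (0.98, 0.98 and 1.12) than on chip 1 (0.60, 0.50 and 0.35). The calls under the PBRM1 and KDM5C shRNAs were lost without the third array of either background (adjusted p 0.081 to 0.153), while the SCR call held without any single array. Without the chip term in the model all 3 calls were lost (adjusted p = 0.0732 in SCR, 0.152 in PBRM1 shRNA and 0.176 in KDM5C shRNA cells).

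Among monocarboxylate carriers, SLC16A3, the lactate exporter MCT4, was at -0.30 (adjusted p = 0.0116) in the mean VHL effect, under the fold limit. SLC16A5 (MCT6) was higher by 0.44 in SCR, 0.59 in PBRM1 shRNA and 0.50 in KDM5C shRNA cells (adjusted p = 0.00558, 4.58e-04 and 0.00195). The signals of SLC16A5 in PBRM1 shRNA cells were 7.75, 7.57 and 8.07 in VHL-/- and 8.06, 8.25 and 8.85 in VHL+/+ arrays, and they no longer overlapped once the chip difference was removed. The PBRM1 shRNA effect passed the 1.5-fold limit by a narrow margin (fold 1.51) and lost it without any 1 of 4 arrays, though the adjusted p stayed at 0.00318 to 0.0047. SLC16A4 (MCT5) was at 0.38 (adjusted p = 2.26e-04). Of the 9 members, 2 were lower and 2 higher at adjusted p under 0.05.

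SLC44A3 belongs to the choline transporter-like family. In SCR cells its VHL-/- arrays read 7.38, 7.26 and 7.67 and its VHL+/+ arrays 8.14, 8.01 and 8.52. With PBRM1 shRNA the arrays read 7.41, 7.15 and 7.57 against 7.76, 7.87 and 8.61, and with KDM5C shRNA the ranges of the backgrounds overlapped. The effects were 0.79 ± 0.11 (SE) in SCR cells (adjusted p = 0.00103), 0.70 in PBRM1 shRNA cells (adjusted p = 0.00202) and 0.32 in KDM5C shRNA cells (adjusted p = 0.173), with the first 2 called. Both calls were lost without the chip term in the model (adjusted p = 0.156 in SCR and 0.299 in PBRM1 shRNA cells). The KDM5C shRNA effect differed from the SCR effect by -0.47 (95% interval -0.81 to -0.13), which gave an adjusted p of 0.463 over all genes. The mean effect, 0.60, lay just over the fold limit and fell under it without any 1 of 5 arrays (adjusted p 2.30e-05 to 4.43e-05). SLC22A4 (OCTN1), in the same class, was at -0.37 (adjusted p = 4.74e-04).

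Mitochondrial carriers had 3 of 35 members lower and 2 higher at adjusted p under 0.05 in the mean VHL effect, and none called. SLC25A24, which exchanges ATP-Mg for phosphate, was called in SCR cells, with signals of 8.52, 8.67 and 8.42 in VHL-/- and 7.76, 7.63 and 8.16 in VHL+/+ arrays. The effect was -0.68 ± 0.13 (SE) in SCR (adjusted p = 0.00659), -0.30 in PBRM1 shRNA (adjusted p = 0.297) and -0.54 in KDM5C shRNA cells (adjusted p = 0.0286), and the groups did not overlap in any of the 3. Without the second VHL+/+ SCR array the SCR effect was -0.57, under the fold limit (adjusted p = 0.0378). SLC25A13, the aspartate-glutamate carrier citrin, was at 0.34 as a mean (adjusted p = 5.63e-04). Among metal carriers 3 of 24 were lower and 4 higher. The zinc importer SLC39A10 was called in PBRM1 shRNA cells, with 8.36, 8.18 and 8.64 in VHL-/- and 8.95, 8.82 and 9.20 in VHL+/+ arrays (0.60, adjusted p = 0.0216). That call ended without any 1 of 4 arrays (adjusted p 0.0551 to 0.123). The zinc importer SLC39A14 was at -0.33 (adjusted p = 0.0129) and the heme carrier SLC48A1 at 0.35 (adjusted p = 0.00584) as means.

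Acid-base, anion and chloride carriers had no call in any VHL or shRNA comparison, and 0 of 26 were lower and 2 higher at adjusted p under 0.05 in the mean VHL effect. The sodium-bicarbonate cotransporter SLC4A4 was at 0.37 (adjusted p = 0.00238). The phosphate, vitamin and nucleoside class had 1 of 15 members higher, SLC17A3, a urate carrier, at 0.46 (adjusted p = 0.0215). The 5 nucleotide sugar carriers had none. Those 3 classes held none of the 15 transporters called in any comparison.

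Within each kind of shRNA cell, VHL called 3 transporters in SCR cells (1 lower, 2 higher), 9 in PBRM1 shRNA cells (4 lower, 5 higher) and 4 in KDM5C shRNA cells (3 lower, 1 higher). Over all genes the called share was 1.03% in SCR cells (0.685% lower, 0.342% higher), 1.02% in PBRM1 shRNA cells (0.51% in each direction) and 0.89% in KDM5C shRNA cells (0.563% lower, 0.327% higher). The transporters' shares were 1.54%, 4.62% and 2.05%. At adjusted p under 0.05 alone, 13, 12 and 9 transporters passed, and the shares over all genes were 3.2%, 2.37% and 2.77%. The PBRM1 shRNA count was 4 without the third VHL+/+ PBRM1 shRNA array and 5 without the third VHL-/- one. The SCR count was 5 without the second or without the third VHL+/+ SCR array, and the KDM5C shRNA count was 2 without the third VHL+/+ KDM5C shRNA array. Without the chip term in the model the counts in the same order were 1, 0 and 1. Only the calls of SLC25A24 in SCR cells and of SLC38A5 in KDM5C shRNA cells remained. With only the 6 arrays of each comparison the counts were 4, 2 and 1, while the mean VHL effect kept a count of 6 without the chip term.

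The 3 VHL comparisons share no arrays, so each can be read against the others. They do share the VHL-restored and VHL-null cells from which the shRNA cells were made. A difference between those cells other than VHL would recur in all 3 and was not tested. The 9 transporters called in PBRM1 shRNA cells all had the same sign in SCR cells, where 5 passed adjusted p under 0.05, and all had the same sign in KDM5C shRNA cells, where 4 did. Of the 134 genes of the whole table called in PBRM1 shRNA cells, 98.5% kept their sign in each of the other two, and 68.7% and 73.1% passed. The 3 called in SCR cells and the 4 called in KDM5C shRNA cells also had the same sign in every other VHL comparison. Over all 195 transporters, 95 (48.7%) had the same sign in all 3, 47 lower and 48 higher, against 42.7% of all genes. The effects correlated across the 195 genes at Pearson r of 0.65 to 0.74, against 0.53 to 0.65 over all genes, and genes are not independent replicates. Transporters whose groups did not overlap as deposited made up 17.9%, 15.4% and 14.9% in SCR, PBRM1 shRNA and KDM5C shRNA cells, against 16.9%, 13.5% and 12.4% of all genes.

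**Figure D3:**
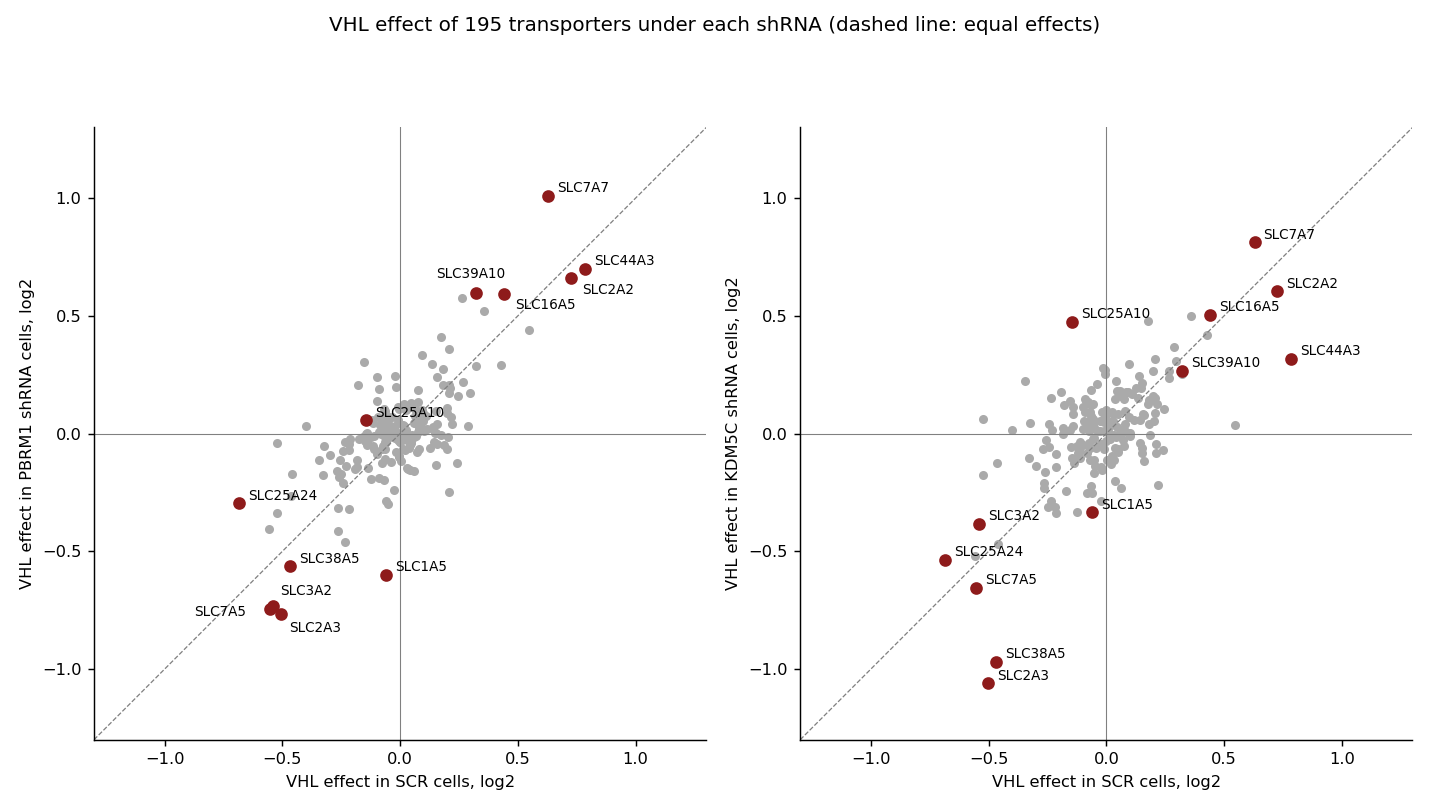
VHL effect (log2, VHL+/+ minus VHL-/-) of each of 195 transporters in SCR cells (x axes) against PBRM1 shRNA cells (left) and KDM5C shRNA cells (right), with 12 transporters that the text describes in red and the line of equal effects dashed. All but SLC25A10 among the red points have 1 sign in all 3 kinds of cell, and SLC25A10 sits at -0.14 in SCR and 0.47 in KDM5C shRNA cells.

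No transporter was called for a difference of the VHL effect between an shRNA and SCR. limma called 0 of 195 for PBRM1 shRNA and 0 for KDM5C shRNA, as it called 0% of all genes in each. At unadjusted p under 0.05 there were 11 and 15 transporters, and 553 and 1014 genes in the table. A difference of effects had a larger SE than a single effect (for SLC31A1 0.19 against 0.13), so a p that misses the threshold does not show equal effects. For KDM5C shRNA against SCR the largest upward differences among the transporters were those of SLC25A10 (0.62) and of SLC9A4, a sodium-proton exchanger (0.59), with adjusted p of 0.405 and 0.387. SLC25A28, a mitochondrial iron importer, had the lowest adjusted p of the 195, 0.255, at 0.57.

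Both shRNAs raised SLC31A1, the high-affinity copper importer CTR1, in both backgrounds. It was the only transporter called in all 4 shRNA comparisons. In VHL-/- cells its signals were 8.80, 8.96 and 8.68 with SCR, 9.85, 10.13 and 9.61 with PBRM1 shRNA and 10.22, 9.90 and 9.64 with KDM5C shRNA. In VHL+/+ cells they were 9.15, 9.04 and 8.91 with SCR, 10.35, 9.92 and 9.45 with PBRM1 shRNA and 9.77, 9.70 and 9.64 with KDM5C shRNA. Every shRNA array was above every SCR array of its background. The PBRM1 shRNA effect was 1.05 ± 0.13 (SE) in VHL-/- and 0.87 in VHL+/+ cells (adjusted p = 1.93e-04 and 0.00184). The KDM5C shRNA effect was 1.11 ± 0.13 (SE) in VHL-/- and 0.67 in VHL+/+ cells (adjusted p = 1.30e-04 and 0.0102). The first 3 calls held without any single array, and the last was lost without the third VHL+/+ KDM5C shRNA array (adjusted p = 0.0621). That last call was also lost without the chip term in the model (adjusted p = 0.109). The 2 shRNAs were not told apart, with PBRM1 minus KDM5C shRNA at -0.06 in VHL-/- cells (95% interval -0.34 to 0.23) and 0.20 in VHL+/+ cells (-0.08 to 0.49). VHL itself moved SLC31A1 by 0.22, 0.04 and -0.22 in SCR, PBRM1 shRNA and KDM5C shRNA cells, none past the test. The other copper carrier of the family, SLC31A2, was at -0.34 and -0.35 for PBRM1 shRNA and -0.35 and -0.34 for KDM5C shRNA, in VHL-/- and VHL+/+ cells, and none of these passed the adjusted test (adjusted p 0.209 to 0.256).

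**Figure D4:**
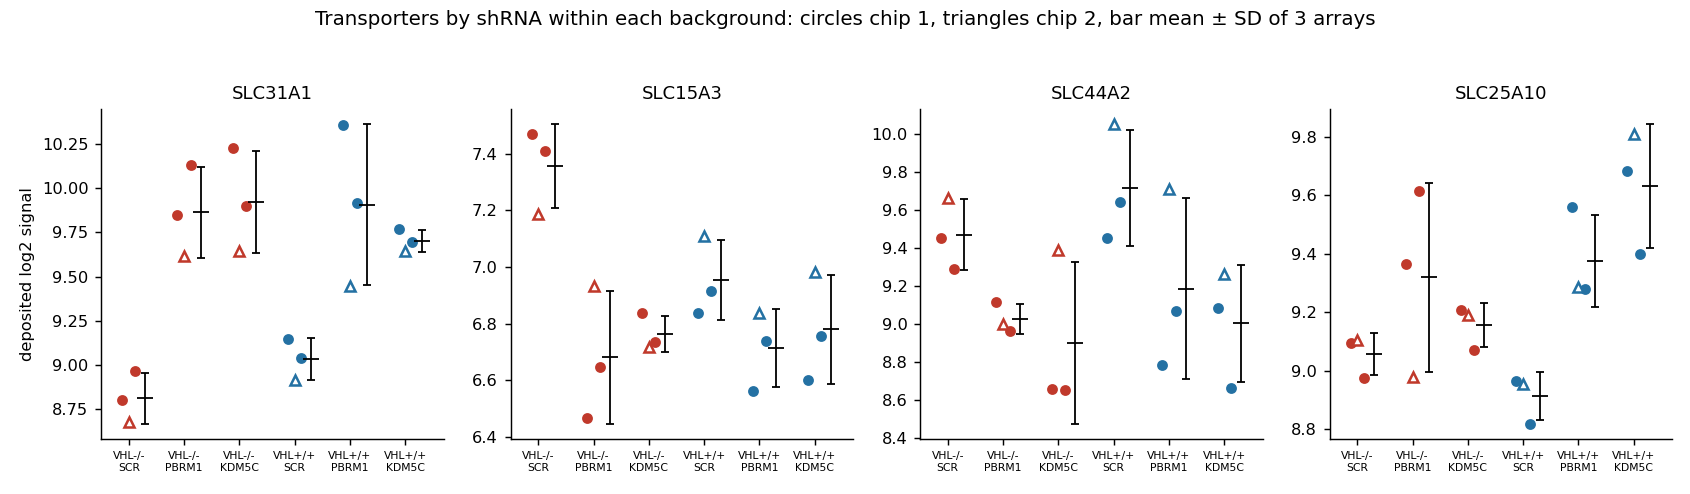
Deposited log2 signals (y axes, scaled for each gene) of the 4 transporters called for an shRNA other than SLC2A3 on each of 18 arrays, by shRNA within each background (x axes, where PBRM1 and KDM5C stand for the shRNAs). Red marks VHL-/- and blue VHL+/+, circles are chip 1, open triangles chip 2, and black bars the mean and SD of 3 arrays. The SLC31A1 arrays with an shRNA against PBRM1 or KDM5C lie between 9.45 and 10.35 and the SCR arrays between 8.68 and 9.15.

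Counts for the shRNAs were small. PBRM1 shRNA called 2 transporters in VHL-/- cells (1 lower, 1 higher) and 1 in VHL+/+ cells (higher), and KDM5C shRNA called 3 in VHL-/- cells (1 lower, 2 higher) and 3 in VHL+/+ cells (1 lower, 2 higher). Of all genes 1.81% (0.89% lower, 0.921% higher), 0.944% (0.304% lower, 0.639% higher), 1.46% (0.654% lower, 0.807% higher) and 1.14% (0.426% lower, 0.715% higher) were called in the same order. The transporters' shares were 1.03%, 0.513%, 1.54% and 1.54%. At adjusted p under 0.05 alone, 11, 4, 13 and 9 transporters passed, or 5.64%, 2.05%, 6.67% and 4.62%, against 5.43%, 2.49%, 4.78% and 4.19% of all genes. The transporters were thus near the background of the table for both shRNAs. In VHL-/- cells the PBRM1 count was 5 without the third PBRM1 shRNA array and 1 without the first. In VHL+/+ cells the KDM5C count was 1 without the third KDM5C shRNA array.

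SLC15A3, a lysosomal carrier of histidine and small peptides, was lower with either shRNA in VHL-/- cells. Its signals were 7.47, 7.41 and 7.19 with SCR, 6.47, 6.65 and 6.93 with PBRM1 shRNA and 6.84, 6.74 and 6.72 with KDM5C shRNA, with no overlap against SCR. The effects were -0.67 (adjusted p = 0.0018) and -0.59 (adjusted p = 0.0052), and both were called. In VHL+/+ cells, where SCR arrays read 6.84, 6.92 and 7.11, the effects were -0.24 and -0.17 (adjusted p = 0.327 and 0.453). The shRNA effects differed between backgrounds by 0.43 and 0.42, with adjusted p of 1 and 0.521, so a dependence on VHL was not established. The gene was dim, at percentile 23.3 of mean signal, and was left out when the dimmest 25% of genes were dropped. The PBRM1 shRNA call was lost on the fold without the first PBRM1 shRNA array (adjusted p = 0.0138), and the KDM5C shRNA call without any 1 of 3 arrays (adjusted p 0.0309 to 0.0395).

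SLC44A2 (CTL2), a choline transporter-like protein, was called lower with KDM5C shRNA in VHL+/+ cells, at 9.09, 8.66 and 9.26 against 9.45, 9.64 and 10.05 with SCR (-0.71, adjusted p = 0.0137). In VHL-/- cells the KDM5C shRNA effect was -0.57 (adjusted p = 0.0389, under the fold limit). The PBRM1 shRNA effects were -0.44 in VHL-/- and -0.53 in VHL+/+ cells (adjusted p = 0.106 and 0.0815). The call was lost without any 1 of 3 arrays (adjusted p 0.0555 to 0.0693) and without the chip term in the model (adjusted p = 0.173). SLC25A10, the mitochondrial dicarboxylate carrier, was called higher with KDM5C shRNA in VHL+/+ cells, at 9.68, 9.40 and 9.81 against 8.97, 8.82 and 8.96 with SCR (0.72, adjusted p = 0.00722). Its KDM5C shRNA effect in VHL-/- cells was 0.10 (adjusted p = 0.8). Its PBRM1 shRNA effects were 0.26 in VHL-/- and 0.46 in VHL+/+ cells (adjusted p = 0.33 and 0.0905). SLC2A3 was called higher with KDM5C shRNA in VHL-/- cells (0.76, adjusted p = 0.00832), where the PBRM1 shRNA effect was 0.51 (adjusted p = 0.0697). The SLC2A3 call ended without the third SCR array or the second KDM5C shRNA array (adjusted p = 0.0567 and 0.0414, the latter on the fold). It was also lost without the chip term in the model (adjusted p = 0.217) and with only the arrays of the comparison (adjusted p = 0.0633).

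Below the fold limit, several carriers passed the adjusted p in 1 or more shRNA comparisons. SLC38A2 was at -0.35 and -0.49 for PBRM1 shRNA and -0.31 and -0.40 for KDM5C shRNA in VHL-/- and VHL+/+ cells (adjusted p = 0.0448, 0.0093, 0.0831 and 0.0273). SLC25A3, the mitochondrial phosphate carrier, was at 0.28 and 0.37, then 0.40 and 0.36 (adjusted p = 0.0534, 0.0184, 0.00678 and 0.0165). SLC25A23, a second ATP-Mg carrier, was at 0.49 and 0.52 with PBRM1 and KDM5C shRNA in VHL-/- cells (adjusted p = 0.0121 and 0.0086). The metal importer SLC11A2 was at -0.50 with KDM5C shRNA in VHL-/- cells (adjusted p = 0.0131). The PBRM1 and KDM5C comparisons of a background share the SCR arrays, so their likeness there is not independent evidence, whereas the 2 backgrounds share no arrays. The backgrounds do share the single shRNA for each target and the SCR control. An effect of a construct other than on its target would recur in both and was not tested. Between backgrounds the sign of the PBRM1 shRNA effect was the same in 129 transporters (66.2%, against 65.8% of all genes) and that of the KDM5C shRNA effect in 122 (62.6%, against 62.0%). Pearson r across the transporters was 0.66 and 0.52, against 0.69 and 0.56 over all genes. The groups of a comparison did not overlap as deposited for 20.5% and 12.8% of transporters with PBRM1 shRNA and for 16.4% and 15.4% with KDM5C shRNA, in VHL-/- and VHL+/+ cells, against 20.7%, 14.2%, 16.3% and 17.9% of all genes.

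**Figure D5:**
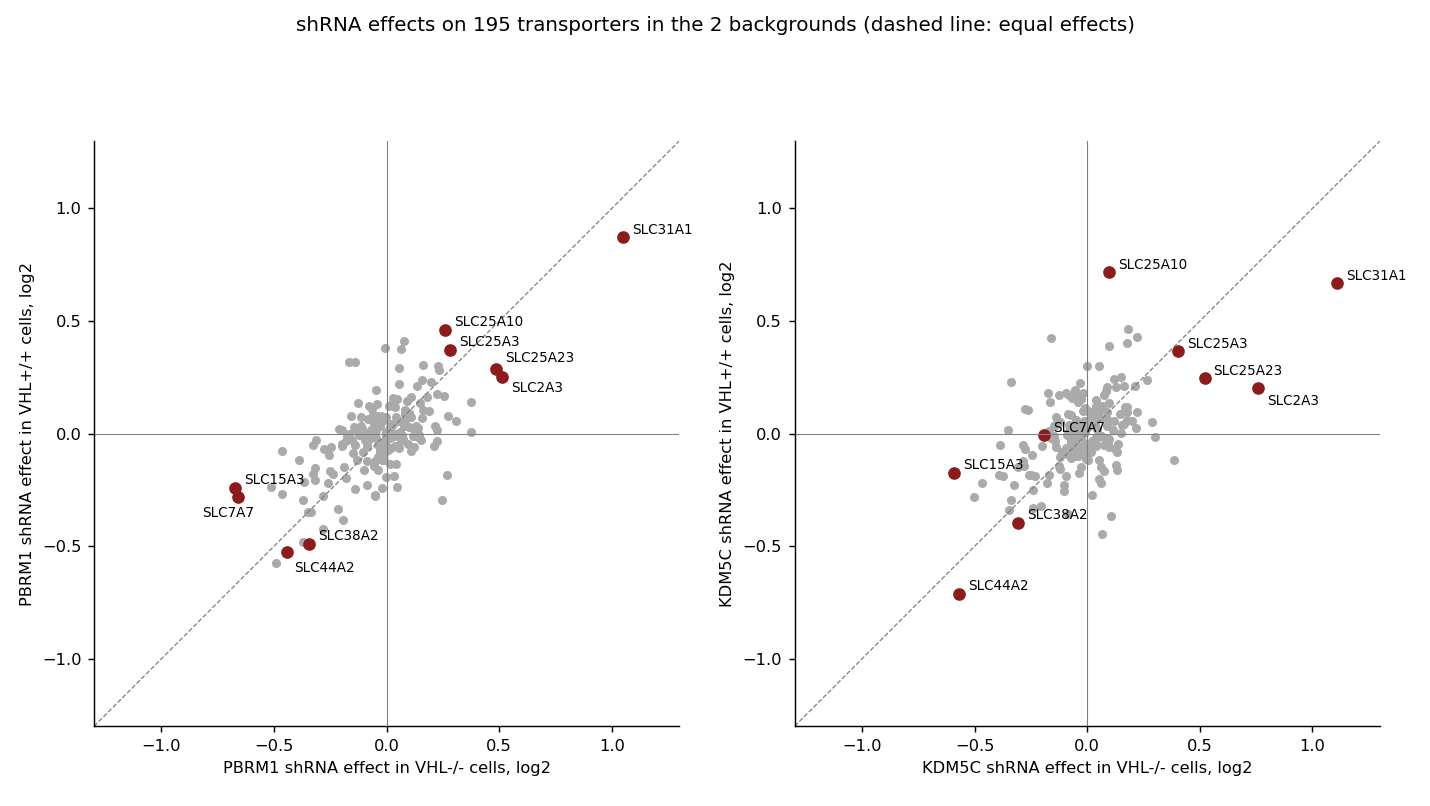
Effect of PBRM1 shRNA (left) and KDM5C shRNA (right) on each of 195 transporters in VHL-/- cells (x axes) and VHL+/+ cells (y axes), in log2 against SCR, with 9 transporters in red and the line of equal effects dashed. SLC31A1 lies farthest to the upper right in the PBRM1 shRNA plot, at 1.05 and 0.87, and SLC25A10 and SLC2A3 lie on opposite sides of the line in the KDM5C shRNA plot.

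Set against each other within a background, PBRM1 and KDM5C shRNA gave 0 called transporters in VHL-/- and 0 in VHL+/+ cells by limma, and 0% of all genes. At unadjusted p under 0.05 there were 12 and 14 transporters, and 707 and 545 genes.

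Lists chosen by known function were read in the mean VHL effect, where 0.928% of all genes were called and 6.17% were lower and 6.03% higher at adjusted p under 0.05. Among transporters linked to HIF, which are named here as examples and not as a count of the list, SLC2A3 and SLC7A5 were called lower, and SLC16A3 and the divalent metal importer SLC11A2 (-0.20, adjusted p = 0.0477) passed the adjusted p below the fold limit. Of 21 proximal tubule transporters 10 were measured, none was called and 3 were higher at adjusted p under 0.05, SLC4A4, SLC17A3 and the drug exporter SLC47A2 (0.24, adjusted p = 0.0224). The list does not hold SLC2A2 or SLC7A7, both called higher and also known from the tubule. Nor does it hold SLC3A2, the partner of SLC7A7, which was at -0.55. These were not chosen as a set of tubule genes, and other tubule carriers outside the list were not gathered. The median of the list was 0.01. All its measured members but SLC4A4 and SLC17A3 lay in the dimmest 25% of the table, SLC47A2 among them. Of 7 lysosomal and endosomal transporters 1 was lower and 1 higher, SLC11A2 and SLC48A1. Among 10 partners and related carriers outside the rule, the organic anion carrier SLCO4A1 was called lower (-0.81, adjusted p = 0.00182) and the scaffold PDZK1, which binds the tails of renal transporters, was at 0.55 (adjusted p = 1.74e-04). SLCO2B1 (-0.32, adjusted p = 3.00e-04) and SLC9A3R1 (0.27, adjusted p = 0.0352) also passed the adjusted p below the fold limit, and the rest did not. Of 27 genes with symbols of the ABC family, not all of them ATP-driven pumps, none was called. At adjusted p under 0.05, 2 were lower and 4 higher. ABCC3 was called higher with PBRM1 shRNA in VHL+/+ cells (0.70, adjusted p = 0.0157), where 0.639% of all genes were.

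In all, 15 transporters (7.69%) were called in at least 1 of the 8 VHL and shRNA comparisons, against 3.99% of all genes, 11 for VHL and 5 for an shRNA, with SLC2A3 in both counts, and 180 were called in none. The largest called effect, 1.11 for SLC31A1 with KDM5C shRNA in VHL-/- cells, was a fold of 2.16, and 4 of 31 calls reached 2-fold.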

How the data were processed

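RNA of 786-O cells on 18 Illumina arrays (HumanHT-12 V4) formed 6 groups of 3, assigned by the genotype and shRNA given in the labels. The authors deposited log2 signals, after GenomeStudio extraction, background correction and quantile normalization with limma, a detection threshold of 0.05 and averaging of the probes of a gene. Tool versions, probe identities and whether a batch correction preceded deposit are not given in the sources used here. Detection calls were not used here, so how many dim values lie at background was not assessed, and precision is set by the number of arrays.

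From the 13141 deposited values of each array, limma 3.58.1 (R 4.3.3; lmFit and eBayes) fitted 6 groups with the chip as an additive term over all 18 arrays (11 residual and 5.136 prior degrees of freedom), with Benjamini-Hochberg adjustment across all genes, separately for each of 12 contrasts. A gene was called when it passed both an adjusted p of 0.05 and a 1.5-fold change; the study's methods name a fold of 2 and its diagrams 1.5. Chips were balanced over groups, so each effect equals the difference of deposited group means. Errors are SEs of the fit unless given as SD, and intervals are at 95%. Scripts were tested on simulated data. Alternatives were the fold limit, no chip term, a replicate block, only the arrays of the contrast, dropping the dimmest 25% of genes, median centering, cyclic loess, trend and robust moderation, and leaving out each array.

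Transporters were matched by symbol to RefSeq, and promoter letters come from its table for GRCh38.p14. The expression table names no genome build, so no coordinates were taken from it. Named are all called transporters, members of the function lists (values for called members and otherwise the first 4 listed) and the largest changes of families with at least 8 genes. A few further genes, among them SLC43A3, SLC48A1, SLC17A3, SLC47A2, SLC25A3, SLC25A28, SLC11A2, SLC31A2, SLC2A14 and SLC16A4, were named after their values were seen. The transporters and the lists were chosen with earlier results of these data known. SLC2A1 was left out by the rule. Not every member of the function lists is reported here.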

Additional observations from a re-analysis of the deposited data

Results flagged for a closer look

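SLC25A10, the mitochondrial dicarboxylate carrier, had VHL effects of opposite sign in SCR and KDM5C shRNA cells, neither past the test. In SCR cells all 3 VHL+/+ arrays (8.97, 8.82 and 8.96) were below all 3 VHL-/- arrays (9.10, 8.98 and 9.10), and in KDM5C shRNA cells all 3 (9.68, 9.40 and 9.81) were above (9.21, 9.07 and 9.19). Once the chip difference was removed, the SCR arrays overlapped. The VHL effects were -0.14 and 0.47 (limma adjusted p = 0.692 and 0.0773), and they differed by 0.62 ± 0.19 (SE) on the log2 scale. The limma test of that difference gave an unadjusted p of 0.00503 and an adjusted p of 0.405 over all genes, so it failed the correction. In PBRM1 shRNA cells the arrays overlapped and the effect was 0.06.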

How the results depend on the processing

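Over 31 calls of a transporter in a comparison, 181 of 209 values under another model or normalization (fold limits aside) and 514 of 558 values with an array left out kept the call, none changed direction, and 10 calls were kept throughout. These were the calls of SLC31A1 with PBRM1 shRNA in both backgrounds and with KDM5C shRNA in VHL-/- cells, of SLC38A5 in KDM5C shRNA cells, and of SLC2A2, SLC2A3, SLC7A5, SLC7A7 and SLC38A5 in the mean VHL effect, with SLC25A10 for KDM5C shRNA in VHL+/+ cells. Counts of called transporters are given below in the order VHL effect in SCR, PBRM1 shRNA and KDM5C shRNA cells, mean VHL effect, PBRM1 shRNA in VHL-/- and VHL+/+ cells, and KDM5C shRNA in VHL-/- and VHL+/+ cells. They were 3, 9, 4, 6, 2, 1, 3 and 3 as reported, 0, 1, 1, 0, 1, 0, 1 and 0 at a fold of 2, and 13, 12, 9, 36, 11, 4, 13 and 9 with no fold limit. Without the chip term they were 1, 0, 1, 6, 2, 1, 2 and 1. With only the arrays of the contrast (not applicable to the mean) they were 4, 2, 1, 3, 1, 2 and 3. Leaving out the dimmest 25% of genes gave 1 for PBRM1 shRNA in VHL-/- cells, since SLC15A3 was no longer tested. With an array left out the ranges were 3 to 5, 4 to 9, 2 to 5, 5 to 7, 1 to 5, 1 to 1, 2 to 3 and 1 to 3. The 4 comparisons of effects or shRNAs gave 0 throughout. Except where a setting drops genes or arrays, the cause was not tested.

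When the model held a replicate block, by replicate number, and no chip term, the counts were again 3, 9, 4, 6, 2, 1, 3 and 3. Once the chip difference was removed, same-numbered arrays of different groups correlated at a median of -0.06, -0.03 and -0.25 for numbers 1, 2 and 3. Of 15 pairs, 2, 2 and 1 were over 0.1. Numbers 1 and 2 thus showed no further pairing of the arrays. Number 3 is the only chip 2 array of each group, and removing the chip difference itself pushes its correlations below 0. Its value therefore cannot decide the question. No setting moved the median of all genes by over 0.1.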
